A study of Mus musculus with 9 samples.

Results

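In whole retinas of mice at postnatal day 21 (P21), 25 named genes were below 1 CPM (reads on a gene, on the counts-per-million scale of all reads on genes) in every control library and at 1 CPM or more in every library from retinas that had lost the DNA demethylation enzymes TET1, TET2 and TET3. The genes were chosen by those measured values, out of 55487 genes in the deposited table. Each had to lie under 1 CPM in all 3 Cre- and all 3 tHet libraries, at 1 CPM or more in all 3 Tet tcKO libraries, and to have a Tet tcKO mean at least 3 times its highest control value. Among all genes, 53 met these levels, and 28 of them were set aside by name, 21 with predicted-gene names (Gm followed by digits) and 7 with RIKEN clone names. No collagen gene met the levels, and neither did Fabp7, Robo3 or Chrnb4, which the selection also leaves out and which reached 2.39, 2.7 and 3.32 CPM in a control library. All 25 genes are annotated as protein coding, and they lie on 13 chromosomes. The set holds 5 transcription factors, 6 enzymes, 6 carriers, receptors and other membrane or membrane-associated proteins, 3 genes for secreted or extracellular matrix products, and 5 genes of cilia, of cell division or of little-known function.

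TET enzymes oxidise 5-methylcytosine, mostly at CpG dinucleotides, to 5-hydroxymethylcytosine and further products, which leads to removal of the mark. Methylated CpGs at a gene's start go along with low transcription in many tissues. At P21 the retina is close to mature and rods are its most abundant cell type, while genes of other tissues or of earlier stages of retinal development are mostly silent in it. A Cre active in retinal progenitors recombines floxed alleles before most retinal cells are born.

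The Cre- mice had no Cre transgene and are labelled wild type, and came from Cre- breeders. The tHet mice were heterozygous for floxed Tet1, Tet2 and Tet3 (loxp/+ for each), and the Tet tcKO mice were homozygous (loxp/loxp for each); both carried a Cre-GFP transgene active in retinal progenitors, with Cre+ animals in-crossed so that 2 functional copies were present, because the transgene is mosaic. All mice are labelled C57 BL/6J, and each of the 3 libraries of a genotype was made from the retinas of 2 pooled animals. A difference of either Cre+ genotype from Cre- cannot be told apart from a difference between breeding lines, or from presence of the transgene.

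Reads counted on genes ran from 9627927 to 21108256 per library, so that 1 read was worth 0.0474 to 0.104 CPM and 3 reads, taken as the floor of detection, 0.142 to 0.312 CPM. Whole-gene levels of Tet3 were 99.2 to 152 CPM in Tet tcKO and 155 to 288 CPM in the control libraries; those of Tet1 and Tet2 overlapped between genotypes. These reads include exons that recombination leaves in place. All 12 rod markers of a fixed list were detected, and their summed level was 39931 to 45817 CPM in Cre-, 34310 to 43505 CPM in tHet and 5893 to 14450 CPM in Tet tcKO. In these bulk samples, fewer cells of a type and less RNA per cell cannot be told apart, and the same holds for more cells and more RNA per cell. Replicate 3 of Tet tcKO stood apart from the other libraries: CT010467.1, a ribosomal RNA gene, took 28.7% of its reads, against 0.0409% to 3.72% in the other 8.

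**Figure D1:**
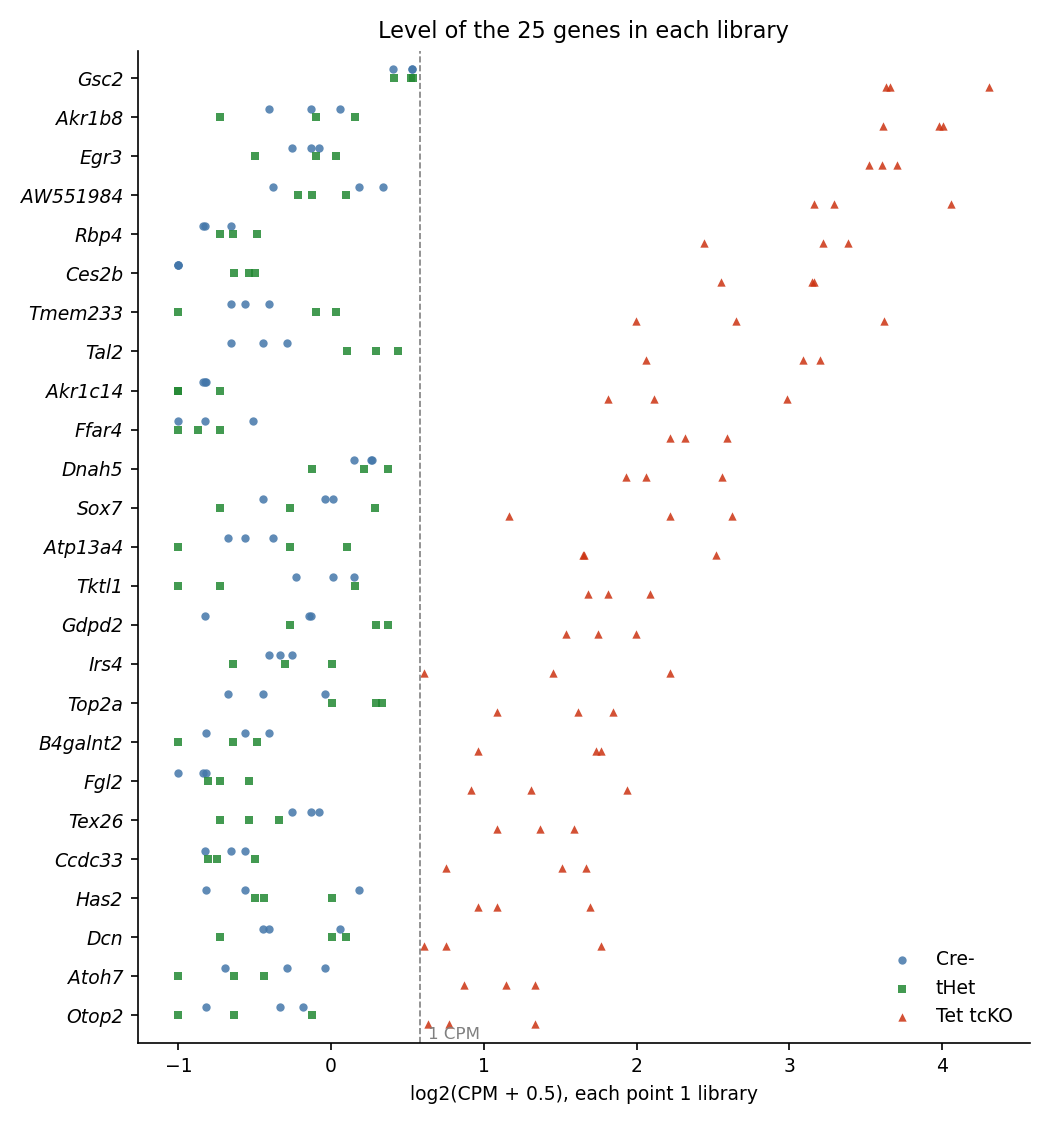
Level of each of the 25 genes in each library, as log2(CPM + 0.5), with genes ordered by their Tet tcKO mean; circles are Cre-, squares tHet and triangles Tet tcKO, 3 libraries each, and the dashed line is 1 CPM. All control points lie to the left of the line and all Tet tcKO points to its right, which the selection requires; Gsc2 and Akr1b8 reach the highest Tet tcKO means, 14.4 and 14.2 CPM.

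The plot of levels by library shows a graded set, not genes that went from nothing to a common level. The Tet tcKO mean was at least 10 CPM for 4 genes (Gsc2, Akr1b8, Egr3 and AW551984), between 5 and 10 CPM for 4 (Rbp4, Ces2b, Tmem233 and Tal2), between 2 and 5 CPM for 13 and under 2 CPM for 4 (Has2, Dcn, Atoh7 and Otop2). The median Tet tcKO mean of all 21330 genes tested was 7.21 CPM, and 6 of the 25 lay above it. Summed over the 25 genes, the level was 7.12, 7.57 and 7.70 CPM in the Cre- libraries, 9.36, 6.34 and 9.24 CPM in the tHet libraries and 161, 126 and 97.7 CPM in the Tet tcKO libraries. Nor were the genes at 0 in controls: 10 of the 25 had a control library with 0 reads, and the largest read count of any of them in a control library was 20, against a smallest count of 16 in a Tet tcKO library. Between genes, levels were compared per kilobase of annotated exon (RPKM, from CPM and merged exon length). By Tet tcKO RPKM, Gsc2 (12.3) and Akr1b8 (9.47) stayed first and were followed by Rbp4 (5.88) and Ffar4 (3.37), whereas Dnah5, whose 15637 bases of exon make it the longest, was last at 0.264.

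Gsc2 (ENSMUSG00000022738.7, chromosome 16, 17913107 to 17915059 in GRCm38), a goosecoid-like homeobox factor best known from a midbrain nucleus, had the highest Tet tcKO level of the set. It was at 0.942, 0.827 and 0.945 CPM (Cre-), 0.936, 0.831 and 0.947 CPM (tHet) and 19.3, 12.1 and 11.9 CPM (Tet tcKO). Its control libraries lay within a narrow band just under the 1 CPM limit, with the same mean in both control genotypes, and its Tet tcKO libraries were all more than 10 CPM higher, replicate 1 being above the other two. Egr3 (ENSMUSG00000033730.4, chromosome 14, 70077203 to 70082614), an early growth response factor induced by signalling in neurons and muscle spindles, was at 0.412, 0.445 and 0.338 CPM (Cre-), 0.432, 0.208 and 0.521 CPM (tHet) and 11.7, 12.5 and 10.96 CPM (Tet tcKO). In CPM as deposited, its Tet tcKO libraries differed least of all members, by a factor of 1.14 between the highest and the lowest. Tal2 (ENSMUSG00000028417.3, chromosome 4, 53779705 to 53788712), a basic helix-loop-helix factor needed for midbrain GABA neurons, was at 0.235, 0.318 and 0.135 CPM (Cre-), 0.576, 0.727 and 0.853 CPM (tHet) and 8.02, 8.70 and 3.67 CPM (Tet tcKO). Every tHet library of Tal2 was above every Cre- library, and Tet tcKO replicate 3 was well under the other two. Sox7 (ENSMUSG00000063060.6, chromosome 14, 63943673 to 63950732), a SoxF factor of endothelium, was at 0.235, 0.509 and 0.473 CPM (Cre-), 0.720, 0.104 and 0.332 CPM (tHet) and 4.16, 5.67 and 1.75 CPM (Tet tcKO), again with replicate 3 lowest in Tet tcKO. Atoh7 (ENSMUSG00000036816.4, chromosome 10, 63099651 to 63101279), the proneural factor that retinal ganglion cells require and that is normally active in embryonic progenitors, was at 0.118, 0.318 and 0.473 CPM (Cre-), 0.144, 0 and 0.237 CPM (tHet) and 2.02, 1.71 and 1.32 CPM (Tet tcKO). Each of its Tet tcKO libraries was above all control libraries.

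Among the enzymes, 2 were aldo-keto reductases, which reduce aldehydes and ketones with NADPH. Akr1b8 (ENSMUSG00000029762.6, chromosome 6, 34354119 to 34368463) was at 0.412, 0.254 and 0.540 CPM (Cre-), 0.432, 0.104 and 0.616 CPM (tHet) and 15.6, 15.3 and 11.7 CPM (Tet tcKO). Its Tet tcKO libraries were close together, and the controls of both genotypes covered the same low range. Akr1c14 (ENSMUSG00000033715.15, chromosome 13, 4049011 to 4090688), a 3-alpha-hydroxysteroid dehydrogenase, was at 0.0589, 0.0636 and 0.0675 CPM (Cre-), 0, 0.104 and 0 CPM (tHet) and 7.42, 3.82 and 3.01 CPM (Tet tcKO). It had 3 reads in the Cre- libraries together, 1 read in the tHet libraries and 233 in the Tet tcKO libraries, and the largest ratio of the set, with a Tet tcKO mean 45.7 times its highest control value. The ratio of pooled CPM in Tet tcKO to Cre- was 75.9 (95% interval 25.7 to 371), where the exact interval covers counting error only. Ces2b (ENSMUSG00000050097.6, chromosome 8, 104831572 to 104840093), a carboxylesterase of the drug- and ester-cleaving family 2, was at 0, 0 and 0 CPM (Cre-), 0.144, 0.208 and 0.189 CPM (tHet) and 8.37, 8.43 and 5.36 CPM (Tet tcKO). No read fell on it in any Cre- library, and with 3 reads per library as the floor (0.190 CPM on average in Cre-) its mean level in Tet tcKO was at least 38.9-fold higher. Tktl1 (ENSMUSG00000031397.11, chromosome X, 74177259 to 74208500), a transketolase-like protein, was at 0.353, 0.509 and 0.608 CPM (Cre-), 0, 0.104 and 0.616 CPM (tHet) and 3.74, 2.7 and 3.01 CPM (Tet tcKO); the controls varied from 0 to 0.616 CPM and lay below Tet tcKO. Gdpd2 (ENSMUSG00000019359.14, chromosome X, 100729873 to 100738895), a glycerophosphodiester phosphodiesterase, was at 0.412, 0.0636 and 0.405 CPM (Cre-), 0.792, 0.727 and 0.332 CPM (tHet) and 2.85, 3.49 and 2.41 CPM (Tet tcKO), with 2 tHet libraries near the upper limit that the selection sets. B4galnt2 (ENSMUSG00000013418.8, chromosome 11, 95865943 to 95914891), which builds the Sd(a) glycan, was at 0.177, 0.254 and 0.0675 CPM (Cre-), 0.216, 0 and 0.142 CPM (tHet) and 2.91, 2.83 and 1.45 CPM (Tet tcKO), with replicate 3 the lowest in Tet tcKO and still above all controls.

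Rbp4 (ENSMUSG00000024990.13, chromosome 19, 38116629 to 38125281), the retinol-binding protein that carries vitamin A in blood, was at 0.0589, 0.0636 and 0.135 CPM (Cre-), 0.216, 0.104 and 0.142 CPM (tHet) and 9.92, 8.83 and 4.94 CPM (Tet tcKO). It had 4 reads in the 3 Cre- libraries together and 383 in the 3 Tet tcKO libraries. Ffar4 (ENSMUSG00000054200.7, chromosome 19, 38097071 to 38114263), a receptor for long-chain fatty acids, was at 0, 0.0636 and 0.203 CPM (Cre-), 0, 0.104 and 0.0474 CPM (tHet) and 5.52, 4.48 and 4.15 CPM (Tet tcKO). The control libraries of both genes were near or under the floor of detection. Replicate 3 was lowest in Tet tcKO for both in CPM as deposited, which for Ffar4 depends on the scaling. Tmem233 (ENSMUSG00000079278.2, chromosome 5, 116038755 to 116083244), a small membrane protein, was at 0.177, 0.254 and 0.135 CPM (Cre-), 0.432, 0 and 0.521 CPM (tHet) and 11.8, 3.49 and 5.78 CPM (Tet tcKO), and replicate 1 was far above the other Tet tcKO libraries. Atp13a4 (ENSMUSG00000038094.15, chromosome 16, 29395853 to 29544864), a P5-type transport ATPase, was at 0.177, 0.127 and 0.270 CPM (Cre-), 0.576, 0 and 0.332 CPM (tHet) and 5.23, 2.64 and 2.65 CPM (Tet tcKO), with replicate 1 again the highest. Irs4, an insulin receptor substrate encoded on the X chromosome, had a mean of 2.47 ± 1.58 CPM in Tet tcKO (SD, n = 3). In CPM as deposited it ranged 4.06-fold between its Tet tcKO libraries, the widest range of the set. Otop2, a proton channel of the otopetrin family, had the lowest mean CPM, 1.43 ± 0.519 CPM in Tet tcKO (SD, n = 3).

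Of the genes for secreted and matrix products, Fgl2 (ENSMUSG00000039899.5, chromosome 5, 21372642 to 21378374), a fibrinogen-like protein of immune cells, was at 0.0589, 0 and 0.0675 CPM (Cre-), 0.0720, 0.104 and 0.189 CPM (tHet) and 3.33, 1.98 and 1.38 CPM (Tet tcKO). It had 2 reads in the Cre- libraries together, and the ratio of pooled CPM in Tet tcKO to Cre- was 53.3 (95% interval 14.4 to 445). Dcn (ENSMUSG00000019929.16, chromosome 10, 97479609 to 97518143), the proteoglycan decorin of connective tissue, was at 0.235, 0.254 and 0.540 CPM (Cre-), 0.504, 0.104 and 0.568 CPM (tHet) and 2.91, 1.19 and 1.02 CPM (Tet tcKO). In Tet tcKO replicates 2 and 3 it was close to the 1 CPM limit, and its mean is also the nearest to the required ratio of 3. Has2, a hyaluronan synthase, had a mean of 1.94 ± 0.695 CPM in Tet tcKO (SD, n = 3). Dnah5 (ENSMUSG00000022262.8, chromosome 15, 28203752 to 28472052), a dynein heavy chain of motile cilia, was at 0.706, 0.700 and 0.608 CPM (Cre-), 0.792, 0.415 and 0.663 CPM (tHet) and 3.68, 5.40 and 3.31 CPM (Tet tcKO), all Tet tcKO libraries lying clear of the controls. Ccdc33 (ENSMUSG00000037716.15, chromosome 9, 58028677 to 58118823), a coiled-coil protein known from testis, was at 0.177, 0.0636 and 0.135 CPM (Cre-), 0.0720, 0.208 and 0.0947 CPM (tHet) and 2.67, 1.19 and 2.35 CPM (Tet tcKO), and replicate 2 was the lowest. AW551984 (ENSMUSG00000038112.15, chromosome 9, 39587396 to 39604403), an expressed sequence of little-known function, was at 0.765, 0.636 and 0.270 CPM (Cre-), 0.360, 0.415 and 0.568 CPM (tHet) and 16.2, 9.29 and 8.43 CPM (Tet tcKO), with replicate 1 the highest. Top2a, the topoisomerase of dividing cells, had a mean of 2.43 ± 0.741 CPM in Tet tcKO (SD, n = 3). Tex26, a testis-expressed gene, averaged 2.07 ± 0.439 CPM in Tet tcKO (SD, n = 3).

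The selection has 3 limits, and a gene just outside differs little from a gene just inside. The highest control values inside were 0.947 CPM for Gsc2, 0.853 for Tal2 and 0.792 for Gdpd2; Slit3 (1.02), Nfam1 (1.18) and Cited1 (1.21) lay just above the limit of 1. For the lowest Tet tcKO library, Dcn and Irs4 (both 1.02 CPM) and Otop2 (1.05) were nearest inside, and Ccdc3 (0.963), Alox8 (0.843) and Helt (0.791) nearest outside. By the ratio of Tet tcKO mean to highest control, Dcn (3.00), Has2 (3.04) and Top2a (3.20) were nearest inside, and Xcr1 (2.99), Shisal2b (2.88) and Sfrp2 (2.73) nearest outside. The lowest Tet tcKO library of a member was between 1.80 and 29.0 times its highest control library, with a median of 4.58, and at least 5 times for 12 of the 25.

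Differences were fitted with limma on log2(CPM + 0.5), with all 9 libraries, across the 21330 genes that reached 0.5 CPM in 3 or more libraries. The 3 Tet tcKO libraries were enough for all 25 genes to pass that filter, since the selection put them at 1 CPM or more. Some genes, such as Gsc2, passed it by control libraries too. A gene is called when its log2 fold change (log2FC) is 1 or more in size and its Benjamini-Hochberg adjusted p is under 0.01, and every fold change understates that of such low genes because of the 0.5 added. Against Cre-, 23 of the 25 were called higher, where 2.03% of all genes tested were. Against tHet, 23 were called higher, where 1.39% of all genes tested were, and 22 were called against both, where 1.2% were. Every Tet tcKO library lay above every control library in 25 of 25, as the selection demands, and in 5.32% of all genes tested. These counts follow from how the genes were chosen and are given as description. Against Cre- the log2FC ran from 1.31 to 4.03 with a median of 2.16 (0.0012 over all genes tested), and against tHet from 1.25 to 4.09 with a median of 2.24 (-0.06 over all genes tested). Akr1b8 was the highest in both, with a log2FC of 4.03 (standard error 0.34) against Cre- and 4.09 (standard error 0.34) against tHet. The genes not called were Dcn in both comparisons (limma adjusted p = 0.0324 and 0.0445), Otop2 against Cre- (limma adjusted p = 0.0151) and Top2a against tHet (limma adjusted p = 0.019).

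**Figure D2:**
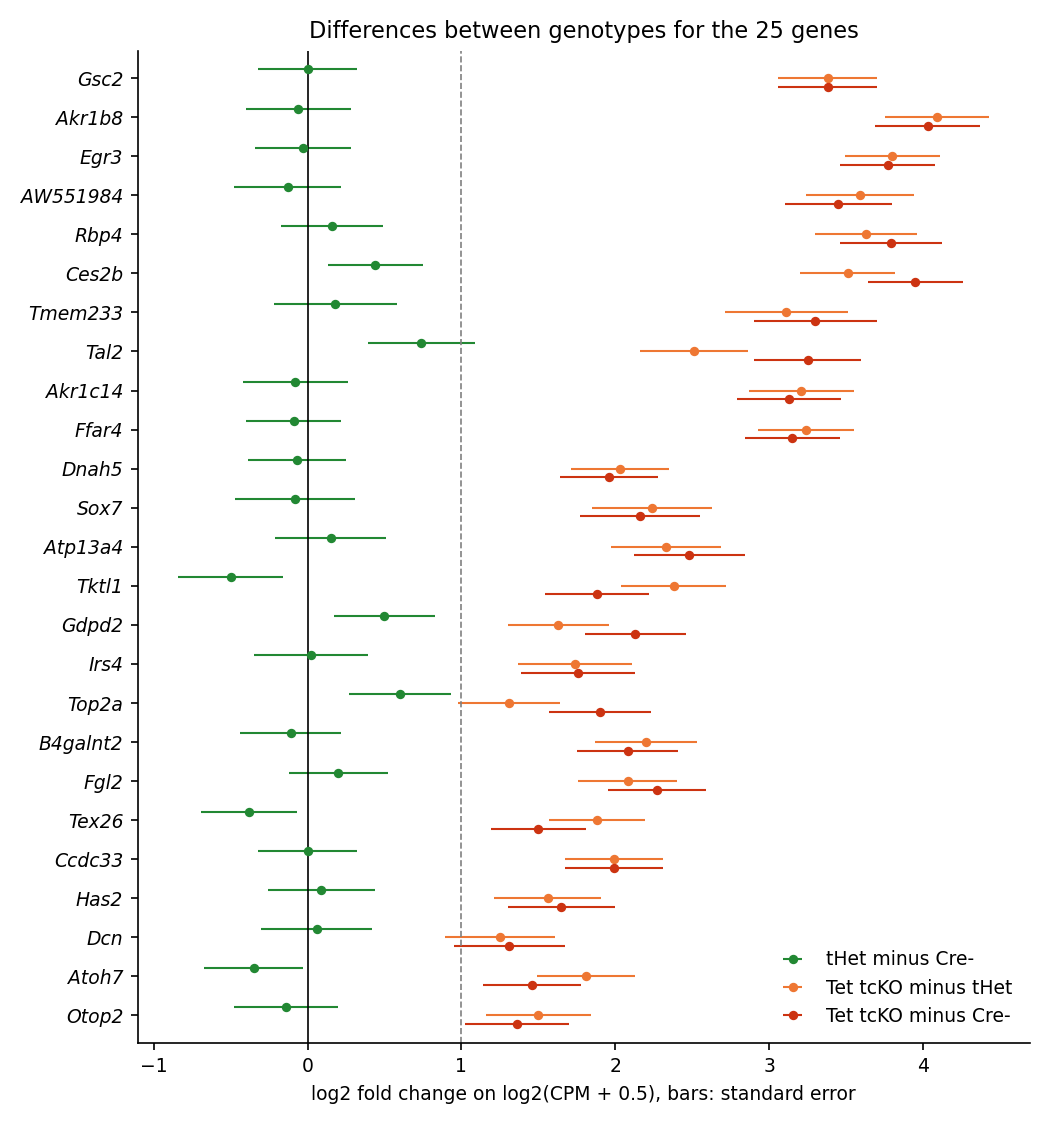
log2 fold change of each gene on log2(CPM + 0.5) between genotypes, with bars of 1 standard error from the limma fit; the dashed line is a log2 fold change of 1. Values for Tet tcKO against Cre- and against tHet run from 1.25 to 4.09 and share the Tet tcKO libraries, while tHet against Cre- runs from -0.50 to 0.74 around 0.

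The selection did not use the difference between the control genotypes, except that both were low. In tHet against Cre-, 0 of the 25 genes were called with limma (0.0422% of all genes tested, in either direction), and 0 with edgeR or DESeq2 on the recovered reads. At an unadjusted p under 0.05 the count was 1, and nothing is read from it without the share of all genes tested. The log2FC was above 0 for 12 genes and below 0 for 13, with a median of -0.0028 against 0.06 over all genes tested. It ran from -0.50 (Tktl1) to 0.74 (Tal2, standard error 0.35), and the smallest adjusted p of the 25 was 0.9998. Tal2 averaged 0.230 ± 0.0917 (Cre-) and 0.719 ± 0.139 CPM (tHet, SD, n = 3 for each), and its log2FC in Tet tcKO was 3.25 (standard error 0.35) against Cre- and 2.51 (standard error 0.35) against tHet. For Ces2b the log2FC of tHet against Cre- was 0.44 (standard error 0.31), from 0 reads in Cre- and 8 reads in tHet. At these levels, differences between the control genotypes of a few reads were not detectable at this depth, and the fit does not show that the genotypes were alike. In the plot of fold changes, the green values scatter on both sides of 0.

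Among the 3 Tet tcKO libraries, the highest value of a gene in CPM as deposited was a median of 1.91 times its lowest, from 1.14 (Egr3) to 4.06 (Irs4). Replicate 1 was the highest for 18 genes and replicate 2 for 7, while replicate 3 was the lowest for 19 and replicate 2 for 6. Part of that order moved with the scaling, and so did which gene had the narrowest range and which the widest. With TMM factors, which take unequal composition into account (0.778 for replicate 3 of Tet tcKO), replicate 1 was the highest for 16 genes, replicate 2 the lowest for 15 and replicate 3 the lowest for 7. With CT010467.1 left out of the totals, an alternative chosen after the data were seen, replicate 1 was the highest for 14, replicate 2 the lowest for 13 and replicate 3 the lowest for 8. The part of that ribosomal RNA gene in the order was not tested further. Without replicate 1 of Tet tcKO, 17 of the 25 were called against each control and 21 of the 25 still met the selection. Without replicate 3 of Tet tcKO, 20 were called against each control and all 25 met the selection. With a Tet tcKO library left out, a member was certain to keep the levels and could fail only the ratio.

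To see how the selection fares in libraries it did not use, it was repeated without the 3 libraries of each replicate number, and the genes so chosen were looked up in the libraries left out. Without the libraries numbered 1, 29 genes were chosen, and 22 of them were at 1 CPM or more in Tet tcKO replicate 1, under 1 CPM in both controls numbered 1 and at least 3 times higher. Among all genes at 1 CPM or more in that Tet tcKO library, 1.34% met this. Without the libraries numbered 2, 25 of 36 did (0.989% of genes), and without those numbered 3, 23 of 44 did (0.82% of genes). The chosen genes, unlike the background, were not required to reach 1 CPM in the left-out library. They had been picked for controls under 1 CPM in the other libraries, and the background had not. The gap between the shares therefore holds that filter too and does not measure the rise in Tet tcKO alone. Regardless of level, the left-out Tet tcKO library was above both left-out controls for 28 of 29, 36 of 36 and 40 of 44 of the chosen genes, against 50.6%, 44.7% and 20.1% of the background. The 20.1% belongs to the libraries numbered 3, where CT010467.1 took 28.7% of the reads of Tet tcKO. That lowers the CPM of every other gene in that library, so the 20.1% is not a plain reference. Because the 25 genes had to pass in every library, those among the chosen were certain to hold the levels, though not the ratio, and 21 of 21, 23 of 25 and 22 of 25 held all. Of the 38 choices of genes outside the 25, 13 (of 9 genes) held the levels in the left-out libraries, and 4 held the levels and the ratio, from 2 genes, Shisal2b each time it was chosen and Xcr1 in the libraries numbered 2. Slit3, for example, was at 3.36 CPM in Tet tcKO replicate 2 but also at 1.02 CPM in Cre- replicate 2.

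Relatives of the members were taken from gene families whose names were written down after the values of the members had been seen, and were compared in the same fit. Of 22 families, 4 held a relative called higher against both controls, where 1.2% of all genes tested were called so. The families differ in size, and the count of families is given as description. Of 15 tested axonemal dynein heavy chains, Dnah5 was called higher against both controls and 0 of the other 14 were. Atp13a4 was the 1 of 5 P5-type ATPases, Has2 the 1 of 3 hyaluronan synthases, Gdpd2 the 1 of 4 glycerophosphodiester phosphodiesterases and Sox7 the 1 of 2 SoxF factors tested. Otop3, also an otopetrin proton channel, was at 2.18, 3.05 and 2.63 CPM (Cre-), 3.38, 4.47 and 3.74 CPM (tHet) and 83.4, 57.5 and 44.8 CPM (Tet tcKO). Its log2FC was 4.28 against Cre- and 3.80 against tHet (limma adjusted p = 5.58e-09 and 5.08e-08), and its Tet tcKO mean of 61.9 CPM stands beside 1.43 CPM for Otop2. Akr1b10 was at 3.47, 3.12 and 2.90 CPM (Cre-), 2.81, 3.43 and 3.70 CPM (tHet) and 16.2, 17.6 and 10.1 CPM (Tet tcKO), with a log2FC of 2.01 against Cre- (limma adjusted p = 0.000179), while Akr1b3, the lens and retina aldose reductase, had a log2FC of -0.22 (limma adjusted p = 0.853). Akr1b8 and Akr1b10 are close copies, and reads shared by copies of a gene family may have been split or dropped by the counting, whose settings are not given in the sources used here; the same holds for Akr1c14 and Ces2b.

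Egr1 was at 24.8, 23.0 and 45.4 CPM (Cre-), 10.2, 49.8 and 16.4 CPM (tHet) and 136, 137 and 123 CPM (Tet tcKO), higher in each Tet tcKO library than in each control, with a log2FC of 2.14 against Cre- (limma adjusted p = 0.00103). Egr1 and Egr3 are both immediate early genes. The control values of Egr1 spread from 10.2 to 49.8 CPM, whereas those of Egr3 stayed at 0.208 to 0.521 CPM. Egr2 was called against Cre- (log2FC 1.44, limma adjusted p = 0.0096) and not against tHet (limma adjusted p = 0.128). Irs1 was at 32.7, 31.3 and 33.8 CPM (Cre-), 25.1, 40.3 and 28.8 CPM (tHet) and 86.8, 83.0 and 49.98 CPM (Tet tcKO), with a log2FC of 1.12 against Cre- (limma adjusted p = 0.00589), and Irs2 had a log2FC of -0.10 (limma adjusted p = 0.938). Of the genes that handle retinoids beside Rbp4, Lrat, which esterifies retinol in the pigment epithelium, fell: it was at 22.7, 6.43 and 11.5 CPM (Cre-), 29.8, 22.9 and 25.8 CPM (tHet) and 4.22, 4.41 and 2.47 CPM (Tet tcKO). The pigment epithelium list summed to 36.1 to 151 CPM in Cre-, 129 to 207 CPM in tHet and 38.8 to 52.5 CPM in Tet tcKO. In it Rpe65 also fell (log2FC -1.87 against Cre-, limma adjusted p = 0.00171), the 1 of 7 tested genes called lower against Cre-. Against tHet 4 were called lower, and the median log2FC of the list against Cre- was 0.03. The part of this list in the values of Lrat was not tested. Of 11 tested genes of mitosis and DNA replication, 2 including Top2a were called higher against Cre- and 0 against tHet, with a median log2FC of 0.26 against Cre-. Carriers and receptors of retinoids other than Rbp4 and Lrat gave 0 calls against both controls.

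**Figure D3:**
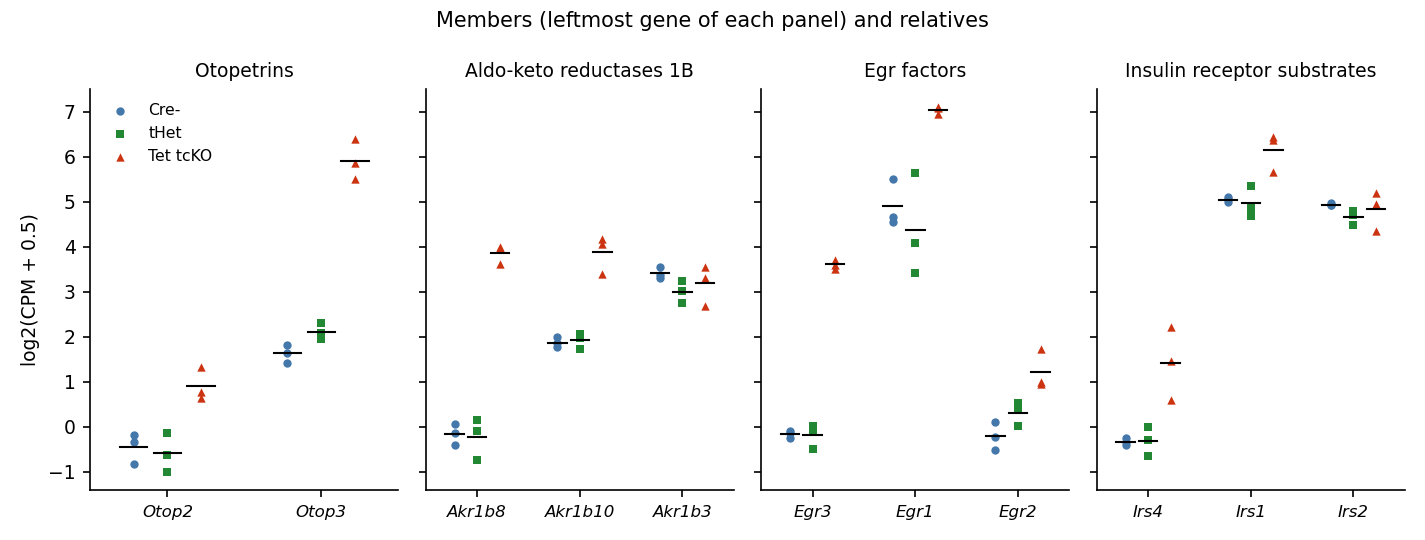
Levels of Otop2, Akr1b8, Egr3 and Irs4, each at the left of its panel, and of their relatives, as log2(CPM + 0.5); each point is 1 library and each black line the mean of 3. Otop3, Akr1b10, Egr1 and Irs1 were also called higher in Tet tcKO against both controls, whereas for Akr1b3 and Irs2 the Tet tcKO libraries overlap those of both controls.

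On the chromosomes, 10 of the 25 genes (40%) had another gene called higher against both controls within 100 kb, where 4.07% of the 14739 protein-coding genes tested had such a neighbour. The 25 genes had 89 pairs with a tested neighbour in that window, of which 11 were with a gene called higher and 1 with a gene called lower, and the median log2FC of the neighbours that are not members was 0.19 against Cre-. No test was made of this count, since the members were chosen in the same comparison. Rbp4 and Ffar4, both members, face each other with 2366 bp between their ends. The next gene beyond Rbp4 is Pde6c, the cone phosphodiesterase, 7500 bp away and averaged 116 ± 10.0 (Cre-), 130 ± 14.5 (tHet) and 168 ± 43.0 CPM (Tet tcKO, SD, n = 3 for each genotype); it was not called (log2FC 0.50 against Cre-, limma adjusted p = 0.25). Otop2 and Otop3 lie 2428 bp apart on the same strand, and Akr1b8 and Akr1b10 15755 bp apart on the same strand. B4galnt2 lies 20209 bp from Gngt2, a cone transducin subunit (log2FC 2.09 against Cre-, limma adjusted p = 6.28e-05), and 4899 bp from the processed transcript 4833417C18Rik (log2FC 2.09, limma adjusted p = 0.000245).

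Irs4 lies 21764 bp from the basement membrane collagen Col4a5 (log2FC 2.76 against Cre-, limma adjusted p = 2.03e-06), Tktl1 14961 bp from the actin-binding protein gene Flna (log2FC 2.12, limma adjusted p = 1.37e-06) and Top2a 17055 bp from Igfbp4 (log2FC 1.30, limma adjusted p = 0.000636). Opn1mw, the cone opsin gene on the other side of Tktl1 at 26499 bp, was not called (log2FC -0.07, limma adjusted p = 0.97). Tex26 holds the intronic transcript 4933425D22Rik on its own strand, and reads of that transcript and of unspliced Tex26 RNA cannot be told apart. Near Tmem233, Prkab1, a subunit of the AMP-activated kinase 14247 bp away, was called lower (log2FC -1.25, limma adjusted p = 0.00179). Exons of 7 members overlap those of another gene; in Tet tcKO the overlapping genes were at 0.525 CPM or less, the highest being Gm11534 on the strand opposite to B4galnt2. Apart from the neighbours that are members themselves or lie within a member, 7 of the 25 genes had a neighbour called higher. These neighbours include the relatives Akr1b10 and Otop3, and near Ces2b the pseudogene Gm8798, at a mean of 0.956 CPM in Tet tcKO. The share over all genes was not counted with the same exclusions, so nothing is read from the 7.

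**Figure D4:**
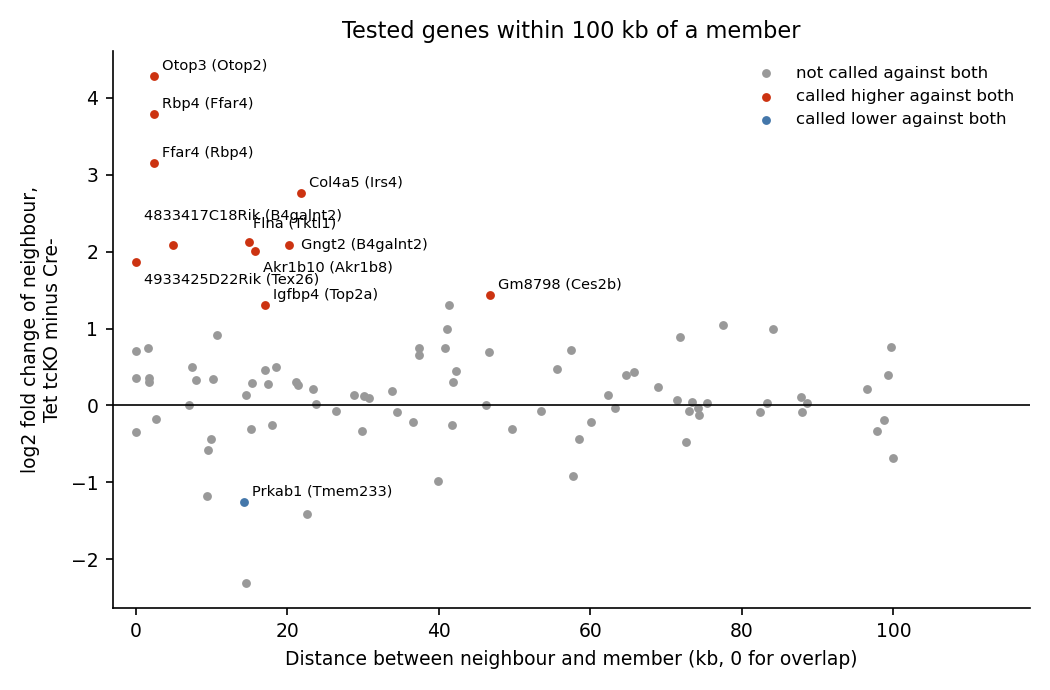
log2 fold change in Tet tcKO against Cre- of each tested gene within 100 kb of a member, against its distance in kb; labels give the neighbour and, in brackets, the member. The neighbours called higher against both controls lie within 46769 bp, from Igfbp4 at 1.30 to Otop3 at 4.28, and the other neighbours scatter on both sides of 0.

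Promoters are shown because TET enzymes act at CpG dinucleotides; methylation itself was not analysed here. RefSeq promoter windows (250 bases before to 50 bases after the start, build GRCm38.p6) were at hand for 20 of the 25 genes. The members held 2 to 24 CpG dinucleotides per window with a median of 10.5, against a median of 11 over 20977 promoters and of 14 over 16516 promoters of coding genes. The median of the members is at the 49.9th percentile of all promoters but at the 26.7th percentile of the 12866 promoters of genes tested, whose median was 19. At least 15 CpGs were found in 7 of the 20 (35%), in 42.5% of all promoters and in 63.6% of those of genes tested, and fewer than 5 in 3 of the 20 (15%), in 32.4% of all and in 11.7% of those of genes tested. The members' windows thus included both CpG-poor and CpG-rich starts. For Akr1c14 and Ccdc33 the RefSeq start lies 10580 and 16526 bases from the 5′ end of the gene annotation, so these windows may not hold the start in use.

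The 250 bases before the start are given for Gsc2, the most abundant member, for the neighbours Rbp4 and Ffar4, which differ in CpG content, and for Tal2 and Atoh7, developmental factors that are low in controls, 5′ to 3′ on the gene's strand with each CpG in capitals (RefSeq, GRCm38.p6).
Gsc2 (chr16:17915028-17915277, minus strand): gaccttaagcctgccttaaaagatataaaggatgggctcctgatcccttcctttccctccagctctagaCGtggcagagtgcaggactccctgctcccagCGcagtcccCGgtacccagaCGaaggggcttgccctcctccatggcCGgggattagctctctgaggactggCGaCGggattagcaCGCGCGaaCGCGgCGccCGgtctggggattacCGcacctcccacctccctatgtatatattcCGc
Rbp4 (chr19:38125322-38125571, minus strand): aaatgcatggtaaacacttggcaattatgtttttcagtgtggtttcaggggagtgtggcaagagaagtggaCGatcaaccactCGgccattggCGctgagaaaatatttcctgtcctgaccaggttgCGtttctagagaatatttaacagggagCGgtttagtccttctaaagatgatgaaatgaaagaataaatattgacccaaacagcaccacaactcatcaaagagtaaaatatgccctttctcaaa
Ffar4 (chr19:38096829-38097078, plus strand): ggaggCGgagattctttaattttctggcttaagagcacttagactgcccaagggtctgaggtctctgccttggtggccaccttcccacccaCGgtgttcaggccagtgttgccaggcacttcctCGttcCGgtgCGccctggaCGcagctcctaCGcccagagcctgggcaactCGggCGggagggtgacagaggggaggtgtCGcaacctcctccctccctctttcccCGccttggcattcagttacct
Tal2 (chr4:53779451-53779700, plus strand): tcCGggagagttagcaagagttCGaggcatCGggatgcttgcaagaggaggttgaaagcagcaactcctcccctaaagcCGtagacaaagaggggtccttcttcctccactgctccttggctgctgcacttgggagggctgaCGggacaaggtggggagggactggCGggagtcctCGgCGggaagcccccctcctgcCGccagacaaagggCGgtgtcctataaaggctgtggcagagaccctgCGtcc
Atoh7 (chr10:63099535-63099784, plus strand): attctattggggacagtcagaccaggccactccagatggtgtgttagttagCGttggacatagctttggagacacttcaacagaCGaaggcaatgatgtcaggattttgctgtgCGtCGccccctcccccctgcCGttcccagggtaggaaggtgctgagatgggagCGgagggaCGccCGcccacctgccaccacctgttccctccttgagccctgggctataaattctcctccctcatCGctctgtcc

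The stretch before Rbp4 holds 5 CpGs and that before Ffar4 11, while over both genes the highest control library was at 0.216 CPM and the lowest Tet tcKO library at 4.15 CPM. The stretch before Gsc2 holds 16, many of them close to the start, and those before Tal2 and Atoh7 hold 11 and 9. Motifs were counted in the whole windows on both strands. The letters TATAAA, as in a TATA box, were found at any position in 5 of the 20 windows (25%) and in 13.4% of all promoters. TAATCC, the site of OTX, CRX and goosecoid homeodomains, was found in 3 of the 20 (15%), those of Gsc2, AW551984 and Tex26, and in 6.87% of all promoters. Gsc2 held 3 copies, a number reached by 6 of 20977 promoters (0.0286%); this was counted after the sequence had been seen. The E-box CANNTG, the site of basic helix-loop-helix factors such as TAL2 and ATOH7, was found in 16 of the 20 (80%) and in 70.0% of all promoters. These are matches of letters in a short window and say nothing of whether a factor binds.

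**Figure D5:**
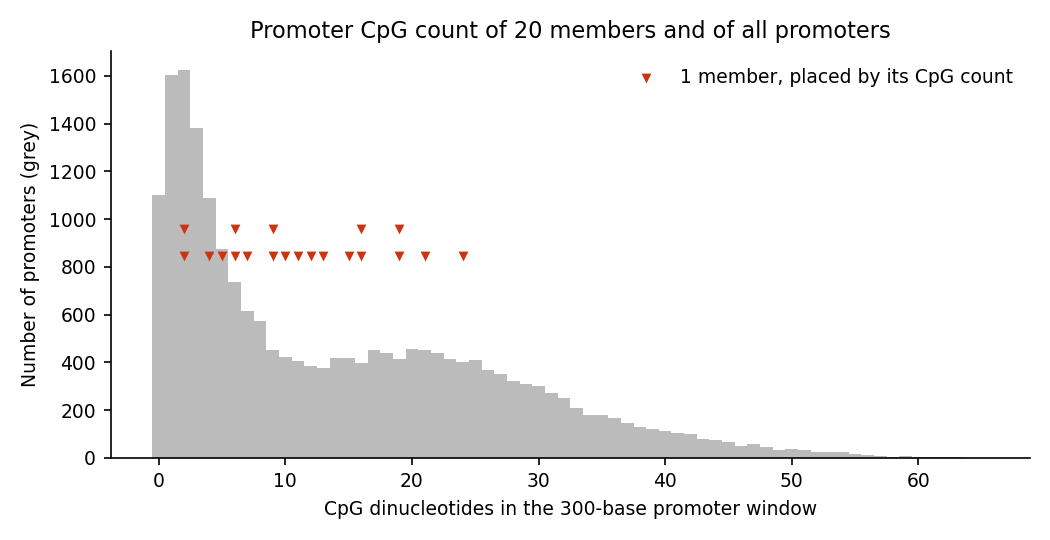
Number of promoters (grey bars, 20977 in all) by their count of CpG dinucleotides in the 300-base RefSeq window; each red triangle is 1 of the 20 members with a window, and its height has no meaning. The members spread from 2 to 24 CpGs with a median of 10.5.

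Markers of cell types were summed in each library, to be set beside the members. Of 19 marker lists, 1 held a member, Dcn among pericyte and fibroblast markers. The 5 genes of that list summed to 73.1 to 112 CPM in Cre-, 92.5 to 133 CPM in tHet and 105 to 235 CPM in Tet tcKO, and none of the 4 tested was called. Small leucine-rich proteoglycans, the family of Dcn, summed to 17.5 to 25.8, 71.3 to 137 and 55.5 to 119 CPM in the same genotypes. Of 7 tested, 1 was called higher against Cre- and 0 against tHet. The 9 microglia and macrophage markers summed to 21.6 to 31.4, 29.7 to 42.3 and 35.5 to 69.1 CPM in the same genotypes, with 1 of 9 called higher against Cre- and 0 against tHet. Endothelial markers summed to 142 to 179, 116 to 142 and 179 to 268 CPM, with 0 of 5 called. Cone markers summed to 743 to 885, 811 to 1005 and 1907 to 2975 CPM, with 7 of 12 called higher against both controls, and Cngb3, a cone channel subunit, had a log2FC of 3.65 against Cre-. In the same list Pde6h, the inhibitory subunit of the cone phosphodiesterase, was called lower against both (log2FC -2.95 against Cre-, limma adjusted p = 2.38e-05), and Guca1a lower against Cre- (log2FC -1.70, limma adjusted p = 0.00233). Ganglion cell markers summed to 1299 to 1858, 1417 to 3084 and 843 to 1341 CPM, with 0 of 10 called higher. Against tHet 1 of the 10 was called lower, and their median log2FC against Cre- was -0.25. Ciliary body and iris markers summed to 101 to 127, 164 to 243 and 147 to 265 CPM, with a median log2FC of 1.24 against Cre-. Of these 6 markers, 3 were called higher against Cre- and 0 against tHet. Lens, cornea and conjunctiva, and skeletal muscle markers, with 0 of their tested genes called against both controls, summed to at most 25.6, 2.26 and 5.40 CPM in Tet tcKO. No gene of these lists of cones, microglia, endothelium, fibroblasts or ganglion cells was at 0 in all libraries. The part of these cell types in the members' values was not tested.

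Other lists, some of genes silent in the mature retina and some of genes expressed there, were counted in the same way, and 1.2% of all genes tested were called higher against both controls. Of 41 germline genes, 16 were tested and 0 were called in either direction. Of 39 genes of the homeobox clusters, 0 passed the filter on low values, and their summed level was 1.21 to 1.96 CPM in Cre-, 1.56 to 2.18 in tHet and 1.57 to 3.56 in Tet tcKO. Among 16 tested neurogenic basic helix-loop-helix factors, Atoh7 was the 1 called against both. Slit3 was the 1 called among 43 tested netrin, Slit, Robo and semaphorin genes, and Chrna3 and Chrna5 were called among 9 tested nicotinic receptor subunits (log2FC 1.76 and 1.74 against Cre-). These lists do not hold the axon guidance receptor gene Robo3 and the nicotinic subunit gene Chrnb4, which the selection sets aside by name; both were called higher against both controls. Robo3 had a log2FC of 5.74 against Cre- (limma adjusted p = 1.3e-10) and Chrnb4 of 5.03 (limma adjusted p = 2.28e-09). No neuropeptide gene, of 23 tested, was called higher against both, 0 of 9 T-box factors was, and 0 of 4 keratins was; Tac2 and Krt18 were called lower. Of 12 tested early cone genes that the study lists, which include Otop3 but no member, 7 were called higher against both controls, and since the list is the study's own, its direction is not independent evidence. Of 8 tested enzymes of DNA methylation and demethylation, 0 were called in either direction.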

How the data were processed

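The data are 9 RNA-seq libraries of whole P21 mouse retina, 3 per genotype, grouped by the sample labels. The authors removed ribosomal RNA, prepared stranded total RNA libraries, trimmed reads with Trim Galore 0.6.7, aligned them to mm10 with STAR 2.7.0f and counted them on genes with HTSeq 0.11.2, as their methods and the submitters' processing notes name them. The annotation release and HTSeq's strand and overlap options are not given in the sources used here. The authors deposited CPM for 55487 genes, and 100% of positive values were whole multiples of 1 read (tolerance 0.02), so reads were recovered. Columns with the authors' own comparisons (log2 fold changes, log2 CPM, p-values, false discovery rates, calls and group averages) were not used.

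The members and all lists were chosen with earlier results of these data known. Differences were fitted with limma 3.58.1 (lmFit, and eBayes with trend) in R 4.3.3 on log2(CPM + 0.5), with 1 mean per genotype, 9 libraries in a single fit and genes at 0.5 CPM in 3 or more libraries. Alternatives were edgeR 4.0.16 and DESeq2 1.42.0 on recovered reads, other pseudocounts, filters, scalings and thresholds, a replicate block, and leaving out each library. The limma, edgeR and DESeq2 fits were tested on simulated data for Tet tcKO against Cre-. The genes changed in that simulation had a mean of at least 1 CPM, so genes as low in controls as the members were not covered. With 3 libraries against 3, an exact permutation test cannot go below p = 0.1, and none is given. Ratio intervals are exact 95% intervals from read counts and, like the floor of 3 reads, they cover counting error alone, as reads without molecular identifiers may be PCR copies. Libraries of a genotype differed by more than sampling noise (chi-square per degree of freedom 15.1 to 341.5) and none was merged, and p-values measure the spread between these pools of animals.

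Values in every library are given for members among the 15 highest by Tet tcKO mean, the 15 highest by ratio or in a list (20 in all), and other members are given by mean. The 3 genes nearest each limit on either side are named once. Genes of lists that are not members are named when called against both controls, at most 4 a list, except that 1 list is not reported here; genes named beyond this (relatives, neighbours, cone and pigment epithelium genes) were chosen after their values were seen. Positions, gene types and exon lengths come from GENCODE release M21 on GRCm38, and promoters from RefSeq. DNA methylation was not analysed here.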

Additional observations from a re-analysis of the deposited data

How the results depend on the processing

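The number of genes that meet the selection depends on its limits. With controls required to be under 0.5 CPM it was 10 and with controls under 2 CPM 46. With at least 2 CPM in each Tet tcKO library it was 14 and with at least 0.5 CPM 36, and with a ratio of at least 2 it was 38 and of at least 5, 17. TMM and upper-quartile scaling each gave 24 genes, 21 of them among the 25, and leaving out CT010467.1 gave 31, which include all 25. Leaving out 1 library gave 24 to 33 genes, which include all 25 except without Tet tcKO replicate 1 (21 of the 25). The 25 were certain to keep the levels each time, and the ratio could fail only without a Tet tcKO library. The count called was 16 to 25 of 25 against Cre- and 17 to 25 against tHet over all alternatives (17 to 24 and 17 to 23 with 1 library left out), and 0 in tHet against Cre- in each. The genes lost most often were Atoh7, Has2, Tktl1, Tex26 and Irs4. Of 500 alternative values of single genes against Cre-, 462 kept their direction and call, 34 lost the call, 4 gained it and 0 reversed. With a replicate block 25 were called against Cre- and 24 against tHet; the numbers name different animals, and deviations of same-numbered libraries correlated at -0.35 to 0.56 (mean 0.111, 9 pairs), against a mean of -0.05 for other pairs, so they were not treated as pairs. The members' median CpG count is at the 49.9th percentile of all promoters, at the 26.7th of promoters of genes tested and, as an observed over expected ratio, at the 50.3rd. In left-out libraries 70 of 109 choices held the selection, a gene being counted each time it was chosen. Most of these were of the 25 genes, which were certain to hold the levels, and 4 of the 38 choices outside the 25 held it. With TMM scaling 21 of 32, 25 of 39 and 24 of 41 choices held it in the libraries numbered 1, 2 and 3. Depth limits the controls: 1 to 3 reads set several ratios.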
